A study of Mus musculus with 34 samples.

Results

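Inhibitory transmission and chloride transport were followed through 8 genes, Gad1, Gad2, Slc32a1, Slc6a5, Slc12a2, Slc12a5, Gphn and Pvalb. They were picked by name, each through the probe set that carries its symbol and has the highest mean over the 34 arrays. They are 8 of 18193 genes on the array, and all 8 were among the 11993 genes with enough signal to be tested. The tissue was spinal cord of knockout (KO) mice without trkB.T1, the truncated form of the receptor encoded by Ntrk2, and of wild-type (WT) mice. It was taken after sham surgery, which left the cord intact, or 1, 3 or 7 days after spinal cord injury. Total RNA of each sample was read on 1 Affymetrix array. The KO groups held 4 sham arrays, 4 at day 1, 5 at day 3 and 4 at day 7, and the WT groups held 4 sham arrays, 5 at day 1, 4 at day 3 and 4 at day 7. Strain, sex, age and the way the injury was made are not given in the sources used here. All groups, sham included, had surgery. By label the KO groups share the absence of trkB.T1 at every time, though KO sham array 2 went against its label, as given below.

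Fast inhibition in the spinal cord uses GABA and glycine. Gad1 and Gad2 encode the enzymes that make GABA from glutamate, Slc32a1 encodes the carrier that loads GABA and glycine into synaptic vesicles, and Slc6a5 encodes the transporter that returns glycine to glycinergic terminals. Both transmitters open chloride channels. Slc12a5 (KCC2) exports chloride from mature neurons and so keeps their inhibition hyperpolarising, while Slc12a2 (NKCC1) imports chloride and is also used by glial and other cells. Gphn encodes gephyrin, the scaffold that holds glycine and GABA-A receptors at inhibitory synapses. Pvalb encodes parvalbumin, a calcium buffer of fast-spiking interneurons and proprioceptive sensory neurons that fast skeletal muscle fibres also contain in quantity.

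Promoter windows of 4 of the genes that fell after injury are printed here to show which common elements they hold. Slc6a5, Gphn and Pvalb also fell and have windows that are not printed. All windows are 300 bases around RefSeq starts of build GRCm38.p6, and 7 of the 8 genes had an entry that was used. The printed windows are on the plus strand, and those of Pvalb are on the minus strand. Gad1 lies at chr2:70561879-70562178, Gad2 at chr2:22622077-22622376, Slc32a1 at chr2:158610508-158610807 and Slc12a5, in the first of its 2 windows, at chr2:164960596-164960895. Capitals mark matches on either strand to the TATA box TATAAA, to the CCAAT box, to GGGCGG as bound by Sp factors, to GCGNGGGCG as bound by Egr factors, to the cyclic AMP element TGACGTCA, or to GGACAGC, a core of the REST element.
Gad1: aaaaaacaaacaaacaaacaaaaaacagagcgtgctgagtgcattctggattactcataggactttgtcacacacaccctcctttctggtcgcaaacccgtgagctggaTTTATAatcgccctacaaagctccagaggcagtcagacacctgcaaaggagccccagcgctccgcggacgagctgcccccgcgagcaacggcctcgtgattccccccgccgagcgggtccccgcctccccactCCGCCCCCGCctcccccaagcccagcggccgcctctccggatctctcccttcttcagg
Gad2: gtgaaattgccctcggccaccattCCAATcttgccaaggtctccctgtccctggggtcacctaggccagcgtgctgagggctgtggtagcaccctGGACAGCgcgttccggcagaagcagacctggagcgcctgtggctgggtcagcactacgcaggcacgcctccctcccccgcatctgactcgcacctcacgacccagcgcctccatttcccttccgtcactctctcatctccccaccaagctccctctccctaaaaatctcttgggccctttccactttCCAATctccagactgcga
Slc32a1: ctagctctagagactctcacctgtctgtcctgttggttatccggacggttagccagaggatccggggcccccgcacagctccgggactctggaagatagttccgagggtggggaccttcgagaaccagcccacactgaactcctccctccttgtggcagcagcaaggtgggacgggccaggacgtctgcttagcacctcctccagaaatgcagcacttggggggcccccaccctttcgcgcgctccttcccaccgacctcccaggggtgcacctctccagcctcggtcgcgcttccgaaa
Slc12a5: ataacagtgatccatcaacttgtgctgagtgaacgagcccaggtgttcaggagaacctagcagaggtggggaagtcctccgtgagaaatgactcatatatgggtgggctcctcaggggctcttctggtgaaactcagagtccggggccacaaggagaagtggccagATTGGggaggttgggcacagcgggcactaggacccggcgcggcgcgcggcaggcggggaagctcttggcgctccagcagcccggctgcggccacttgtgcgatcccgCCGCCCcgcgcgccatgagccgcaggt

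The capitalised motifs differed between these windows. Gad2 holds GGACAGC, which is in 6.56% of 32851 promoter windows of the same length, and REST is known as a repressor of neuronal genes in other cells. Gad2 also has 2 CCAAT boxes, which 37.4% of windows hold at least once. Gad1 has a TATAAA on the reverse strand (13.6% of windows), and its GGGCGG (35.7%) overlaps its GCGNGGGCG (5.55%). Slc12a5 has 1 CCAAT and 1 GGGCGG in the window printed, and its second window holds GGGCGG but not CCAAT. Slc32a1 has none of the capitalised motifs, and no window printed here has TGACGTCA (1.79%). The E-box CANNTG, not capitalised, occurs once in Gad1 and in Gad2 and 2 times in Slc32a1 and in Slc12a5, and 72.3% of windows hold it. Their G and C content was 60% for Gad1, 61.3% for Gad2, 63.3% for Slc32a1 and 63.7% for Slc12a5, against a median of 52.7% over all windows and an upper quartile of 61.7%. A match is a run of letters and does not show that a factor binds there.

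Several arrays stood apart from their groups. Of 8 Ntrk2 probe sets, 2 were lower in KO cord at all 4 times, and on these the KO sham array 2 read 9.46 and 8.59, against 3.31 to 4.91 and 2.83 on the other KO sham arrays. WT sham arrays read 10.19 to 10.66 and 9.58 to 9.84. KO sham array 2 thus lay between the other KO sham arrays and the WT sham arrays. It went against its label without reaching the WT sham level, so values without it are given where they change a call. KO day 3 arrays 3 and 4 had means of 10.35 and 10.52 over 15 neuronal genes, against 11.03 to 11.36 on the other KO day 3 arrays. The tissue label matched its markers, with the neuronal mean at 11.78 to 11.91 on KO sham arrays and 11.85 to 11.88 on WT sham arrays. A list of 12 skeletal muscle genes averaged 7.38 to 10.34 on KO sham arrays and 3.54 to 8.70 on WT sham arrays. Caudal Hox genes, which mark position along the cord, averaged 8.79 to 9.20 on KO sham arrays and 6.20 to 7.20 on WT sham arrays. That Hox mean was 7.91 to 9.27, 6.70 to 8.55 and 8.42 to 8.78 on KO arrays of days 1, 3 and 7. It was 7.94 to 9.12, 6.88 to 8.51 and 7.78 to 8.42 on WT arrays of these days. At KO days 3 and 7 and WT days 1 and 7 it did not overlap the sham arrays of the genotype. In those comparisons injury and Hox level cannot be told apart. Levels are log2 intensities and are compared only within a gene. A value after ± is a standard error of a log2 difference unless it is called an SD. Whether arrays stand for separate animals is not given in the labels, so p-values measure the spread between samples, which may be technical.

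After injury, transcripts of the 8 genes fell in both genotypes, with the lowest median at day 3. The chloride importer Slc12a2 was back near its sham level by day 7. In KO cord, 4, 8 and 6 of the 8 genes fell at days 1, 3 and 7 against KO sham, with adjusted p under 0.05, and without KO day 3 arrays 3 and 4 the counts were 7, 8 and 7. Of all tested genes, 51.1%, 69.7% and 54.5% passed in these comparisons in either direction, and 27.3%, 38.8% and 31% fell. In WT cord, 7, 8 and 7 of the 8 genes fell against WT sham, where 59.5%, 66.9% and 59.1% of all genes passed and 32.5%, 37.4% and 33.3% fell. None of the 8 genes rose in these 6 comparisons, where 23.7%, 30.9% and 23.5% of all genes rose in KO cord and 27.1%, 29.5% and 25.8% in WT cord. The median log2 difference of the 8 genes was -0.47, -1.21 and -0.67 in KO cord and -0.60, -1.06 and -0.87 in WT cord, while the median over all tested genes was -0.05 to -0.06. In each of the 6 comparisons, 7 of the 8 genes had every injured array below every sham array, which 30.9%, 33.7% and 35.8% of all genes showed in KO cord and 29.3%, 32.6% and 33% in WT cord. The comparisons within a genotype share their sham arrays. In whole tissue, fewer cells of a type and less RNA per cell cannot be told apart.

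Markers of other cells moved at the same times. Of 15 neuronal genes, 4, 14 and 13 fell in KO cord and 11, 14 and 14 in WT cord at days 1, 3 and 7. Of all tested genes, 27.3%, 38.8% and 31% fell in KO cord and 32.5%, 37.4% and 33.3% in WT cord. The KO day 1 count of neuronal genes is near that share. The neuronal mean was 11.78 to 11.91, 11.36 to 11.64, 10.35 to 11.36 and 11.26 to 11.32 on KO sham, day 1, day 3 and day 7 arrays. On WT arrays it was 11.85 to 11.88, 11.19 to 11.57, 10.86 to 11.27 and 11.15 to 11.31. A mean over 5 tested excitatory neuron genes was also lower after injury. Its median was 9.88, 9.37, 9.06 and 9.35 on KO sham, day 1, day 3 and day 7 arrays. On WT arrays the median was 9.95, 9.35, 9.10 and 8.87. Single genes of this list differed. In KO cord Slc17a6 averaged 12.52 on sham arrays and 12.04, 11.25 and 11.73 at days 1, 3 and 7. Tac1 averaged 10.22 on KO sham arrays and 10.19, 9.90 and 10.28 at these days. Lower levels after injury were thus also seen in the mean of excitatory neuron genes, though not in each gene. No count of fallers is given for this list. Of 10 macrophage and microglia genes, 8, 10 and 10 rose in KO cord and 9, 10 and 10 in WT cord. Among all tested genes 23.7%, 30.9% and 23.5% rose in KO cord and 27.1%, 29.5% and 25.8% in WT cord. The part of these shifts in the values of the 8 genes was not tested.

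**Figure D1:**
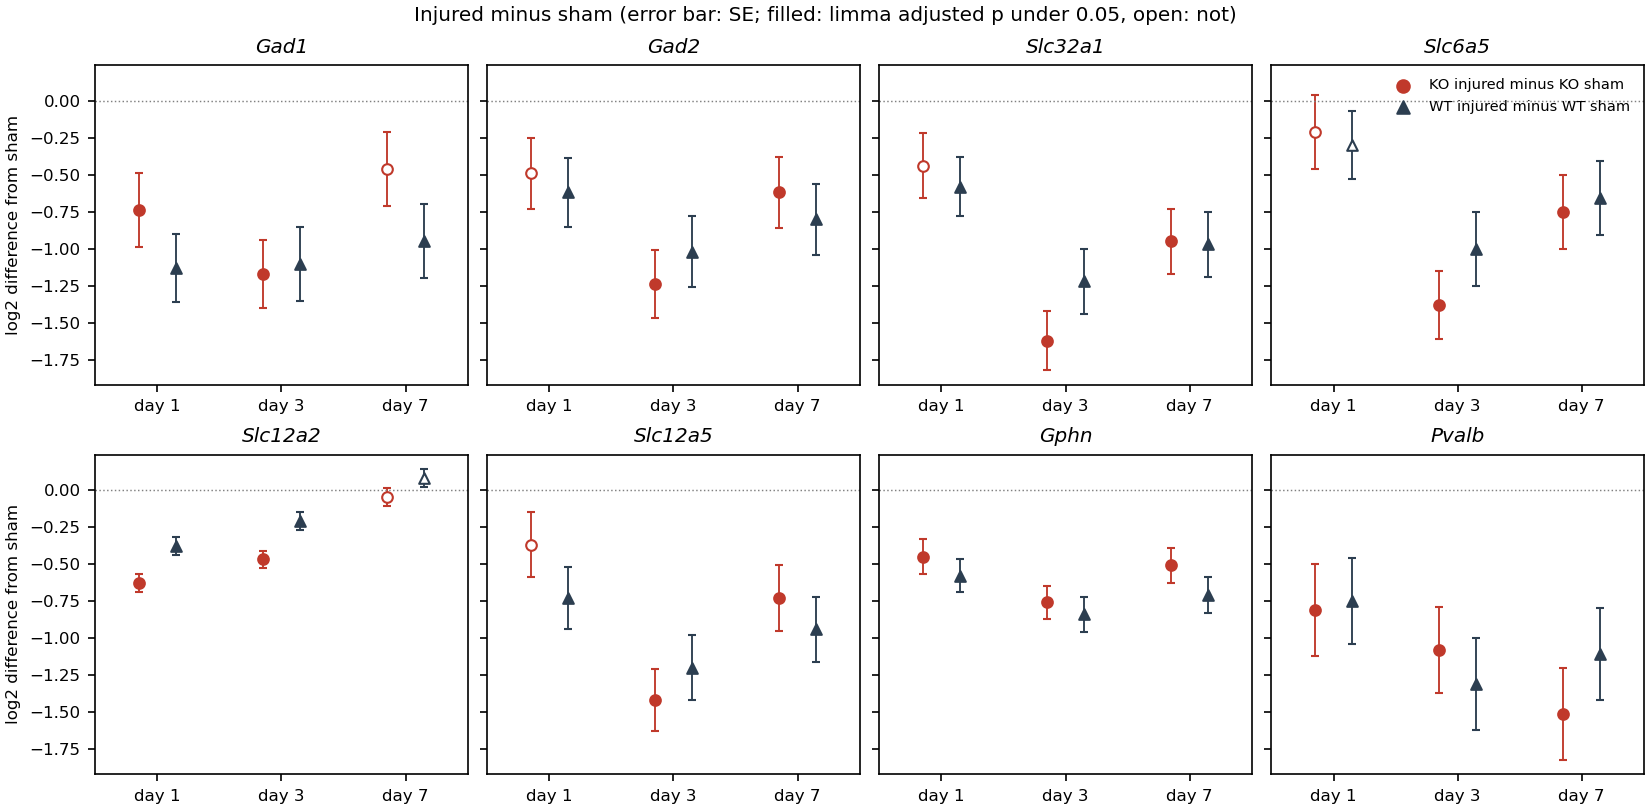
Log2 difference of each gene between injured and sham arrays at days 1, 3 and 7, with KO (red circles) left of WT (dark triangles), SE as error bars and filled symbols for adjusted p under 0.05. Slc32a1 reaches -1.62 in KO cord and -1.22 in WT cord at day 3, whereas Slc12a2 is lowest at day 1 and at -0.05 and 0.08 by day 7.

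The transcript of the main GABA-making enzyme fell within a day. Gad1 (probe set 1416561_at) read 12.48, 12.26, 12.34 and 12.28 on the KO sham arrays, 11.34, 11.84, 11.53 and 11.69 at day 1, 11.51, 11.88, 10.19, 10.54 and 11.71 at day 3, then 11.77, 11.93, 11.93 and 11.90 at day 7. In WT cord Gad1 read 12.41, 12.59, 12.35 and 12.56 after sham surgery, 11.09, 11.68, 11.72, 10.85 and 11.38 at day 1, 11.53, 10.98, 11.32 and 11.68 at day 3, then 11.33, 11.56, 11.55 and 11.66 at day 7. Every injured array lay below every sham array of its genotype, and the 2 lowest of all were KO day 3 arrays 3 and 4. In KO cord the differences from sham were -0.74 ± 0.25 at day 1 (adjusted p = 0.0141), -1.17 ± 0.23 at day 3 (adjusted p = 6.31e-05) and -0.46 ± 0.25 at day 7 (adjusted p = 0.119). In WT cord they were -1.13 ± 0.23 (adjusted p = 0.000179), -1.10 ± 0.25 (adjusted p = 0.000303) and -0.95 ± 0.25 (adjusted p = 0.0016). On the linear scale, 44.3% of the sham level was left at day 3 in KO cord and 46.7% in WT cord. At KO day 7 Gad1 passed with only the groups compared (adjusted p = 0.000288) and with array weights (adjusted p = 0.00123). It also passed without KO day 3 arrays 3 and 4 (adjusted p = 0.0124) but not with the Hox covariate. The KO day 1 call for Gad1 was lost without KO day 1 array 1 (adjusted p = 0.0511), and without KO day 3 arrays 3 and 4 the KO day 3 difference was -0.64. A second Gad1 probe set gave larger differences, of -1.25, -2.12 and -0.93 in KO cord and -1.97, -1.83 and -1.59 in WT cord at days 1, 3 and 7, and only KO day 7 did not pass (adjusted p = 0.0633).

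Gad2, the form of the enzyme concentrated at nerve terminals, fell too. Gad2 (1429589_at) read 9.10, 9.20, 9.03 and 9.14 on the KO sham arrays, 8.45, 8.59, 8.70 and 8.77 at day 1, 8.31, 8.67, 6.75, 7.23 and 8.42 at day 3, then 8.33, 8.55, 8.66 and 8.45 at day 7. In WT cord Gad2 read 9.03, 9.10, 9.0 and 9.10 after sham surgery, 8.20, 8.55, 8.72, 8.16 and 8.55 at day 1, 8.10, 8.09, 7.85 and 8.10 at day 3, then 8.18, 8.52, 8.16 and 8.18 at day 7. Injured and sham arrays did not overlap in either genotype, and KO day 3 arrays 3 and 4 were again lowest. Gad2 differed from KO sham by -0.49 ± 0.24 at day 1 (adjusted p = 0.0954), -1.24 ± 0.23 at day 3 (adjusted p = 2.84e-05) and -0.62 ± 0.24 at day 7 (adjusted p = 0.0338). It differed from WT sham by -0.62 ± 0.23 (adjusted p = 0.0221), -1.02 ± 0.24 (adjusted p = 0.000586) and -0.80 ± 0.24 (adjusted p = 0.00635). The KO day 7 call for Gad2 was lost without any one of KO sham arrays 1, 2 and 4 or KO day 7 arrays 1, 2 and 4 (-0.56 to -0.63), and the WT day 1 call without WT day 1 array 1 or 4 (-0.56 each). A second Gad2 probe set gave -0.51 (adjusted p = 0.228), -1.78 (adjusted p = 2.08e-05) and -0.67 (adjusted p = 0.107) in KO cord and passed at each time in WT cord, at -0.84, -1.23 and -1.28. The KO day 7 call was also lost with the mean over probe sets (adjusted p = 0.055), with no filter (adjusted p = 0.0559) and with the Hox covariate (-0.39, adjusted p = 0.0867). Without KO day 3 arrays 3 and 4 the KO day 3 difference of Gad2 was -0.65 ± 0.12 (adjusted p = 3.51e-05). At KO day 1 Gad2 passed without these arrays, with only the groups compared and with array weights (adjusted p = 0.000516, 0.00102 and 0.0026). It also passed with the muscle mean as a covariate (adjusted p = 0.0387) but not with the Hox covariate.

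The vesicular carrier fell at day 3 and day 7 in both genotypes. Slc32a1 (1422756_at) read 10.48, 10.62, 10.58 and 10.53 on the KO sham arrays, 9.82, 10.25, 10.25 and 10.13 at day 1, 9.11, 9.62, 8.13, 8.26 and 9.53 at day 3, then 9.67, 9.58, 9.58 and 9.57 at day 7. In WT cord Slc32a1 read 10.41, 10.45, 10.41 and 10.35 after sham surgery, 9.88, 9.77, 9.96, 9.55 and 9.98 at day 1, 9.21, 8.78, 9.29 and 9.47 at day 3, then 9.40, 9.67, 9.25 and 9.42 at day 7. All injured arrays were below the sham arrays of their genotype. Slc32a1 differed from KO sham by -0.44 ± 0.22 at day 1 (adjusted p = 0.0876), -1.62 ± 0.20 at day 3 (adjusted p = 7.53e-08) and -0.95 ± 0.22 at day 7 (adjusted p = 0.00054). The WT differences were -0.58 ± 0.20 (adjusted p = 0.0166), -1.22 ± 0.22 (adjusted p = 1.82e-05) and -0.97 ± 0.22 (adjusted p = 0.00036). At day 3, 32.4% of the sham level was left in KO cord and 42.9% in WT cord. Without KO day 3 arrays 3 and 4, Slc32a1 still fell at day 3 in KO cord, by 1.13 ± 0.13 on the log2 scale (adjusted p = 6.31e-08). The WT day 1 call for Slc32a1 was lost with the mean over its probe sets (-0.13, adjusted p = 0.0514).

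The glycine transporter transcript fell at days 3 and 7 and did not pass at day 1. Slc6a5 (1442177_at) read 11.16, 11.39, 11.26 and 11.28 on the KO sham arrays, 10.72, 11.14, 11.44 and 10.95 at day 1, 10.05, 10.57, 9.18, 9.29 and 10.38 at day 3, then 10.50, 10.50, 10.49 and 10.57 at day 7. In WT cord Slc6a5 read 11.23, 11.20, 10.98 and 11.19 after sham surgery, 10.57, 10.78, 11.06, 10.78 and 11.08 at day 1, 10.16, 9.29, 10.44 and 10.71 at day 3, then 10.26, 10.69, 10.35 and 10.68 at day 7. Day 1 arrays overlapped the sham arrays in both genotypes, and KO day 1 array 3 was above every KO sham array. Arrays of days 3 and 7 lay below all sham arrays. Slc6a5 was -0.21 ± 0.25 from KO sham at day 1 (adjusted p = 0.495) and fell at day 3 (-1.38 ± 0.23, adjusted p = 7.8e-06) and day 7 (-0.75 ± 0.25, adjusted p = 0.0115). It was -0.30 ± 0.23 from WT sham at day 1 (adjusted p = 0.282) and fell at day 3 (-1.0 ± 0.25, adjusted p = 0.000825) and day 7 (-0.66 ± 0.25, adjusted p = 0.0236). At WT day 1 Slc6a5 passed with only the groups compared (-0.30, adjusted p = 0.043) and with the Hox covariate (-0.87, adjusted p = 0.0103). The WT day 7 call for Slc6a5 was lost without WT sham array 1 or WT day 7 array 1 or 3 (-0.58 to -0.63).

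**Figure D2:**
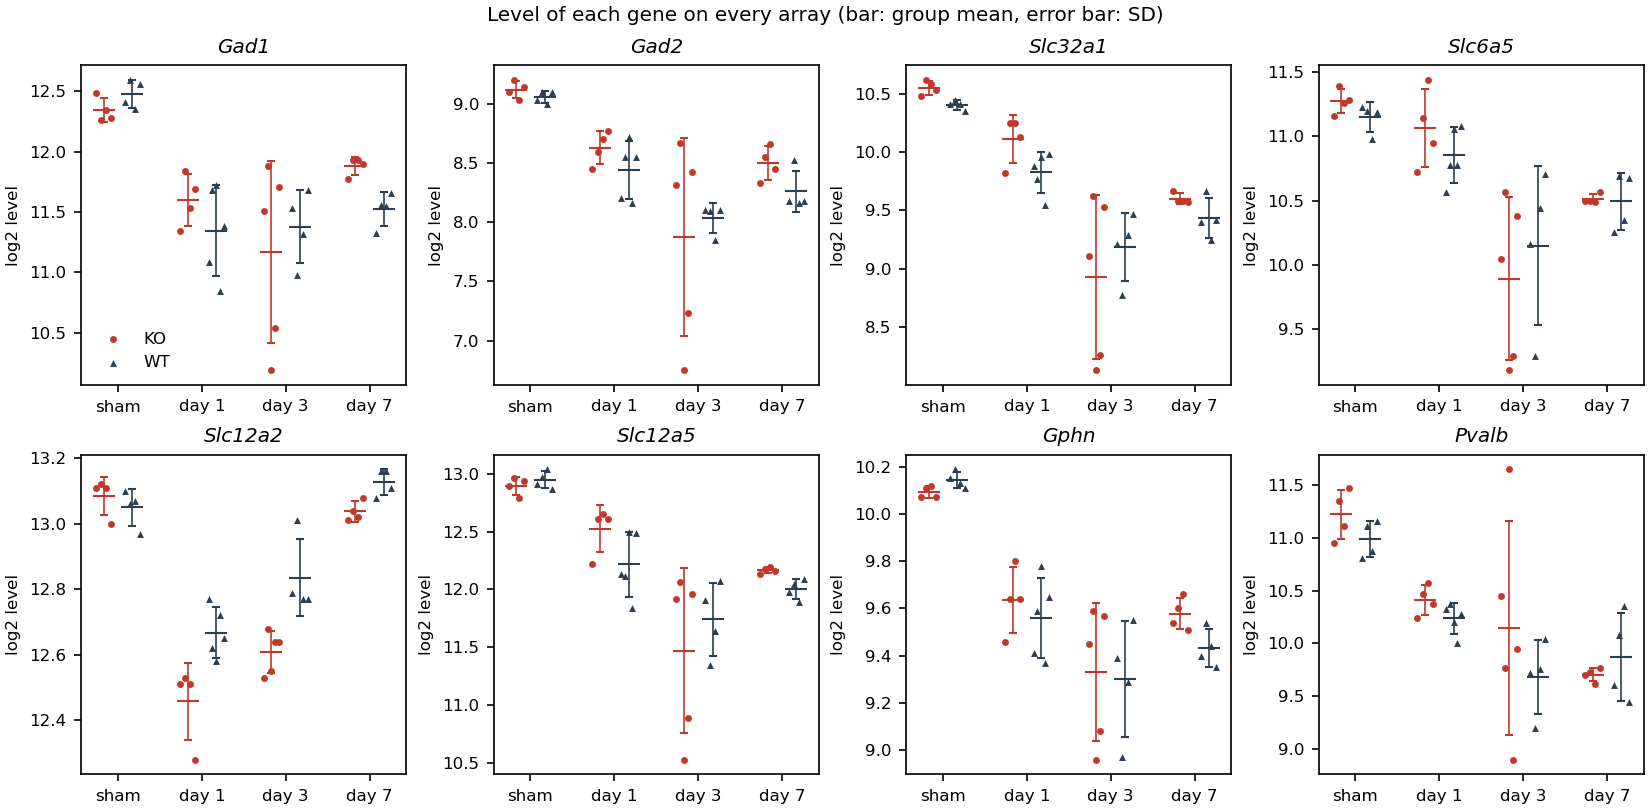
Log2 level of the 8 genes on every array by time, with KO (red circles) left of WT (dark triangles), the group mean as a bar and its SD as an error bar. Slc32a1, Slc6a5 and Slc12a5 are lowest at day 3, where KO arrays 3 and 4 sit apart from the other 3, and Slc12a2 is lowest at day 1.

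The chloride exporter of mature neurons fell with the inhibitory neuron genes. Slc12a5 (1451674_at) read 12.89, 12.96, 12.79 and 12.94 on the KO sham arrays, 12.22, 12.61, 12.65 and 12.61 at day 1, 11.92, 12.06, 10.53, 10.89 and 11.96 at day 3, then 12.13, 12.18, 12.19 and 12.16 at day 7. In WT cord Slc12a5 read 12.91, 12.97, 13.04 and 12.87 after sham surgery, 12.13, 12.12, 12.50, 11.84 and 12.49 at day 1, 11.91, 11.35, 11.64 and 12.07 at day 3, then 11.98, 12.05, 11.89 and 12.09 at day 7. Every injured array was below every sham array of its genotype, and the 4 KO day 7 arrays lay within a narrow range. Slc12a5 differed from KO sham by -0.37 ± 0.22 at day 1 (adjusted p = 0.172), -1.42 ± 0.21 at day 3 (adjusted p = 1.22e-06) and -0.73 ± 0.22 at day 7 (adjusted p = 0.00778). In WT cord the differences were -0.73 ± 0.21 (adjusted p = 0.00464), -1.20 ± 0.22 (adjusted p = 3.7e-05) and -0.94 ± 0.22 (adjusted p = 0.000765). Of the sham level, 37.4% was left at day 3 in KO cord and 43.5% in WT cord. Without KO day 3 arrays 3 and 4 the KO day 3 value of Slc12a5 was -0.91 ± 0.14 (adjusted p = 2.79e-06). At KO day 1 Slc12a5 passed without these arrays, with only the groups compared and with array weights (adjusted p = 0.0158, 0.0132 and 0.0143). It did not pass with the muscle mean or the Hox mean as a covariate.

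The chloride importer took another course. Slc12a2 (1417622_at) read 13.11, 13.12, 13.11 and 13.00 on the KO sham arrays, 12.51, 12.53, 12.51 and 12.28 at day 1, 12.53, 12.68, 12.55, 12.64 and 12.64 at day 3, then 13.01, 13.04, 13.02 and 13.08 at day 7. In WT cord Slc12a2 read 13.10, 13.06, 13.07 and 12.97 after sham surgery, 12.77, 12.62, 12.58, 12.72 and 12.65 at day 1, 12.79, 13.01, 12.77 and 12.77 at day 3, then 13.08, 13.16, 13.16 and 13.11 at day 7. Its arrays at days 1 and 3 were below the sham arrays, except WT day 3 array 2, and its day 7 arrays overlapped them. Slc12a2 fell in KO cord at day 1 (-0.63 ± 0.06, adjusted p = 1.41e-09) and day 3 (-0.47 ± 0.06, adjusted p = 3.23e-08) and was at -0.05 ± 0.06 at day 7 (95% interval -0.17 to 0.07). It fell in WT cord at day 1 (-0.38 ± 0.06, adjusted p = 2.71e-06) and day 3 (-0.21 ± 0.06, adjusted p = 0.00281) and was at 0.08 ± 0.06 at day 7 (95% interval -0.04 to 0.20). The SD within a group was 0.03 to 0.12, so small differences of Slc12a2 could be resolved. Both other Slc12a2 probe sets passed in KO cord at days 1 and 3, but in WT cord at day 3 they gave -0.12 (adjusted p = 0.548) and -0.10 (adjusted p = 0.441), and 1 of them did not pass at day 1 (-0.29, adjusted p = 0.114).

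Because the transporters changed unequally, their difference on an array shifted with time. Slc12a2 minus Slc12a5 was 0.06 to 0.32 on KO sham arrays, -0.32 to 0.28 at day 1, 0.61 to 2.02 at day 3 and 0.83 to 0.92 at day 7. On WT arrays it was 0.03 to 0.19 after sham surgery, 0.08 to 0.89 at day 1, 0.69 to 1.66 at day 3 and 1.01 to 1.27 at day 7. All day 3 and day 7 arrays were above the sham arrays of their genotype. The group mean moved from its sham value by -0.26, 0.95 and 0.68 in KO cord and by 0.35, 0.99 and 1.02 in WT cord at days 1, 3 and 7. Without KO day 3 arrays 3 and 4 the KO day 3 shift was 0.45, with the other 3 arrays at 0.61 to 0.68. This difference describes unequal change of 2 probe sets, not a ratio of transcript or protein levels, and it was not tested.

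**Figure D3:**
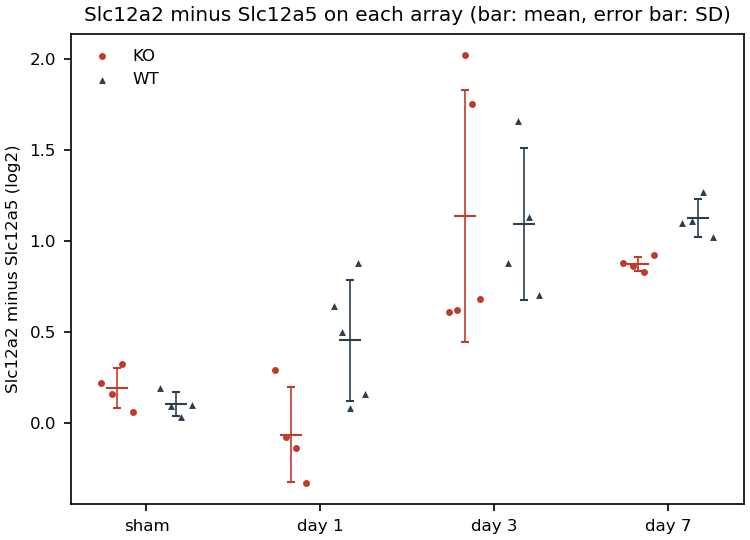
Slc12a2 minus Slc12a5 in log2 units on each array by time, with KO (red circles) left of WT (dark triangles), the group mean as a bar and its SD as an error bar. Sham arrays lie between 0.03 and 0.32, and all arrays of days 3 and 7 lie at 0.61 or above.

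The gephyrin transcript fell at every time with little spread. Gphn (1426462_at) read 10.07, 10.11, 10.12 and 10.07 on the KO sham arrays, 9.46, 9.64, 9.80 and 9.64 at day 1, 9.45, 9.59, 8.96, 9.08 and 9.57 at day 3, then 9.54, 9.60, 9.66 and 9.51 at day 7. In WT cord Gphn read 10.15, 10.19, 10.13 and 10.11 after sham surgery, 9.41, 9.59, 9.78, 9.37 and 9.65 at day 1, 9.39, 8.97, 9.29 and 9.55 at day 3, then 9.40, 9.54, 9.44 and 9.35 at day 7. No injured array reached a sham array of its genotype. Gphn differed from KO sham by -0.45 ± 0.12 at day 1 (adjusted p = 0.00221), -0.76 ± 0.11 at day 3 (adjusted p = 7.98e-07) and -0.51 ± 0.12 at day 7 (adjusted p = 0.000611). From WT sham it differed by -0.58 ± 0.11 (adjusted p = 6.95e-05), -0.84 ± 0.12 (adjusted p = 5.79e-07) and -0.71 ± 0.12 (adjusted p = 1.04e-05). Gephyrin is also made outside neurons, where it serves molybdenum cofactor synthesis. Both further Gphn probe sets also fell each time, by 0.40 to 0.97 in KO cord and 0.65 to 0.94 in WT cord.

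Parvalbumin fell at every time, and its level also followed muscle genes. Pvalb (1417653_at) read 10.95, 11.35, 11.11 and 11.47 on the KO sham arrays, 10.24, 10.47, 10.57 and 10.37 at day 1, 10.45, 9.77, 11.65, 8.90 and 9.95 at day 3, then 9.70, 9.73, 9.62 and 9.77 at day 7. In WT cord Pvalb read 10.81, 11.11, 10.87 and 11.16 after sham surgery, 10.33, 10.37, 10.20, 10 and 10.28 at day 1, 9.72, 9.20, 9.76 and 10.04 at day 3, then 9.61, 10.08, 10.35 and 9.45 at day 7. Only KO day 3 array 3 was above sham arrays of its genotype. Pvalb differed from KO sham by -0.81 ± 0.31 at day 1 (adjusted p = 0.0313), -1.08 ± 0.29 at day 3 (adjusted p = 0.00193) and -1.51 ± 0.31 at day 7 (adjusted p = 0.000191). The WT differences were -0.75 ± 0.29 (adjusted p = 0.0298), -1.31 ± 0.31 (adjusted p = 0.000555) and -1.11 ± 0.31 (adjusted p = 0.00307). The KO day 1 call for Pvalb was lost without KO sham array 2 or 4 or KO day 1 array 1 or 4 (-0.72 to -0.79), and the WT day 1 call without WT sham array 2 or 4 or WT day 1 array 4 (-0.69 to -0.71). With no filter neither day 1 call passed (adjusted p = 0.0528 in KO cord and 0.0504 in WT cord), and the Hox covariate also took away the WT day 1 call (-0.60, adjusted p = 0.202).

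KO day 3 array 3, the one with Pvalb at 11.65, had a mean of 13.05 over the 12 skeletal muscle genes, the highest of all 34 arrays. That mean was 7.38 to 10.34 on KO sham arrays, 3.54 to 6.31 at day 1, 4.50 to 13.05 at day 3 and 4.11 to 5.21 at day 7. In KO cord 11 of the 12 muscle genes fell at days 1 and 7, where 27.3% and 31% of all genes fell. On WT arrays the muscle mean was 3.54 to 8.70, 3.36 to 7.84, 6.22 to 9.09 and 4.04 to 9.45. None of the 12 passed there, where 59.5%, 66.9% and 59.1% of all genes passed. With the muscle mean as a covariate, Pvalb differed from KO sham by -0.10 ± 0.23 at day 1 (adjusted p = 0.743), -0.86 ± 0.19 at day 3 (adjusted p = 0.000238) and -0.82 ± 0.22 at day 7 (adjusted p = 0.00338). In WT cord it then differed by -0.53 ± 0.19 (adjusted p = 0.0176), -1.54 ± 0.20 (adjusted p = 2.75e-07) and -1.12 ± 0.20 (adjusted p = 2.66e-05). With this covariate the KO day 1 difference of Pvalb no longer passed, while the other 5 kept their direction and passed. The muscle means of KO sham arrays do not overlap those of KO days 1 and 7. In these 2 comparisons the covariate cannot separate muscle content from injury.

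**Figure D4:**
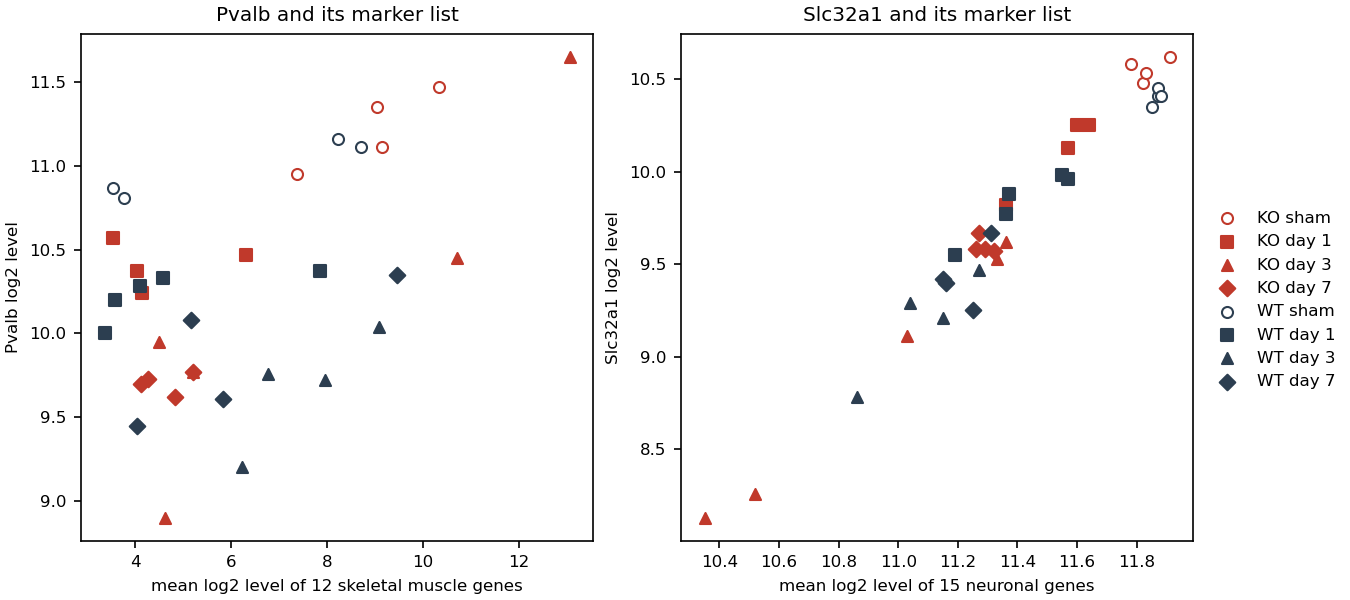
Pvalb against the mean of 12 skeletal muscle genes (left) and Slc32a1 against the mean of 15 neuronal genes (right), 1 point per array, all axes in log2 units, with KO in red, WT dark, sham open and injured filled. The KO day 3 array at a muscle mean of 13.05 has Pvalb at 11.65, and the 2 arrays at neuronal means of 10.35 and 10.52 have Slc32a1 at 8.13 and 8.26.

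Between injured times, averaged over both genotypes, 5 of the 8 genes fell further and 1 rose at day 3 against day 1, where 60.4% of all genes passed, 34.3% lower and 26.1% higher. Slc6a5 was lower at day 3 than at day 1 by -0.94 ± 0.17 (adjusted p = 2.35e-05), Slc32a1 by -0.91 ± 0.14, Slc12a5 by -0.76 ± 0.15, Gad2 by -0.58 ± 0.16 and Gphn by -0.28 ± 0.08. The Gphn call was lost without KO day 3 arrays 3 and 4, WT day 3 array 2 and KO sham array 2 together (-0.12, adjusted p = 0.0654). With the Hox mean as a covariate Gphn was at -0.12 (adjusted p = 0.207) and Gad2 at -0.19 (adjusted p = 0.291), and 4 genes passed. Slc12a2 was higher by 0.16 ± 0.04 (adjusted p = 0.00123). Gad1, already low at day 1, was at -0.20 ± 0.17 (adjusted p = 0.298, and 0.07 without KO day 3 arrays 3 and 4), and Pvalb by -0.41 ± 0.21 (adjusted p = 0.0868, and 0.00123 without KO day 3 array 3, where the difference was -0.60).

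At day 7 against day 3, 6 of the 8 genes were higher and none lower, where 46.2% of all genes passed, 24.8% higher and 21.3% lower. The 6 were Slc6a5 (0.48 ± 0.17), Slc12a5 (0.48 ± 0.15), Slc32a1 (0.46 ± 0.15), Gad1 (0.43 ± 0.17), Gad2 (0.42 ± 0.17) and Slc12a2 (0.36 ± 0.04, adjusted p = 6.99e-08). Only Slc12a2 still passed without KO day 3 arrays 3 and 4, at 0.35 ± 0.04 (adjusted p = 5.21e-07), when the other 5 were at 0.13 to 0.26. Without WT day 3 array 2 alone, 3 of the 8 genes passed.

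KO and WT cord were not shown to differ in any of the 8 genes. None passed in KO against WT after sham surgery, at day 1, at day 3 or at day 7, where 0.0667%, 0.859%, 0.0334% and 0.0334% of all genes passed in limma. At an unadjusted p under 0.05 the counts of the 8 genes were 0, 1, 1 and 0. The log2 differences of the 8 genes ran from -0.14 to 0.23 after sham surgery, -0.21 to 0.31 at day 1, -0.27 to 0.46 at day 3 and -0.17 to 0.36 at day 7. Their 95% intervals reached from -0.64 to 0.87, -0.43 to 0.78, -0.74 to 1.07 and -0.80 to 0.86, so differences of that size could have gone undetected. None of the 8 passed when the change from sham was tested between KO and WT, at day 1, day 3 or day 7 (0.142%, 0% and 0.00834% of all genes), with 1, 1 and 0 at an unadjusted p under 0.05.

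Slc12a2 was the gene behind the unadjusted values. At day 1 its arrays averaged 12.46 ± 0.12 in KO cord and 12.67 ± 0.08 in WT cord (SD, n = 4 and 5). The difference was -0.21 ± 0.06 (unadjusted p = 0.000902, adjusted p = 0.0839). At day 3 they averaged 12.61 ± 0.07 in KO cord and 12.84 ± 0.12 in WT cord (SD, n = 5 and 4). Here the difference was -0.22 ± 0.06 (unadjusted p = 0.000458, adjusted p = 0.199). All KO arrays were below all WT arrays at days 1, 3 and 7, which 2.83%, 0.367% and 3.49% of all genes showed in that direction, and the day 7 difference was -0.09 ± 0.06. After sham surgery the difference was 0.04 ± 0.06. The genotype difference in the Slc12a2 injury response was -0.25 ± 0.08 at day 1 (adjusted p = 0.423) and -0.26 ± 0.08 at day 3 (adjusted p = 0.594). Slc12a2 passed in KO against WT at day 1 without WT day 3 array 2 (adjusted p = 0.0221).

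The other genes leaned both ways. At day 7 every KO array was above every WT array for Gad1 (0.36 ± 0.25) and Slc12a5 (0.16 ± 0.22), which 5.24% of all genes showed in that direction, and after sham surgery for Slc32a1 (0.15 ± 0.22), which 3.02% showed. None of these passed (adjusted p = 1 for each). At day 3, leaving out KO arrays 3 and 4 turned the sign of KO against WT for 5 of the 8 genes, and none passed. Without and with these arrays the difference was 0.43 and -0.16 for Gad2, 0.32 and -0.21 for Gad1, 0.24 and -0.27 for Slc12a5, 0.23 and -0.26 for Slc32a1 and 0.19 and -0.26 for Slc6a5. KO and WT sham arrays differed in caudal Hox genes, of which 4 of 5 were higher in KO sham, where 0.0667% of all genes passed. With their mean as a covariate, Gad1 was lower in KO sham by -1.05 ± 0.31 (adjusted p = 0.036), Slc12a5 by -1.04 ± 0.25 (adjusted p = 0.0191), Gad2 by -0.98 ± 0.28 (adjusted p = 0.0317) and Gphn by -0.50 ± 0.15 (adjusted p = 0.033). The Hox ranges of KO and WT sham arrays do not overlap, so in these groups genotype and cord level cannot be told apart.

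**Figure D5:**
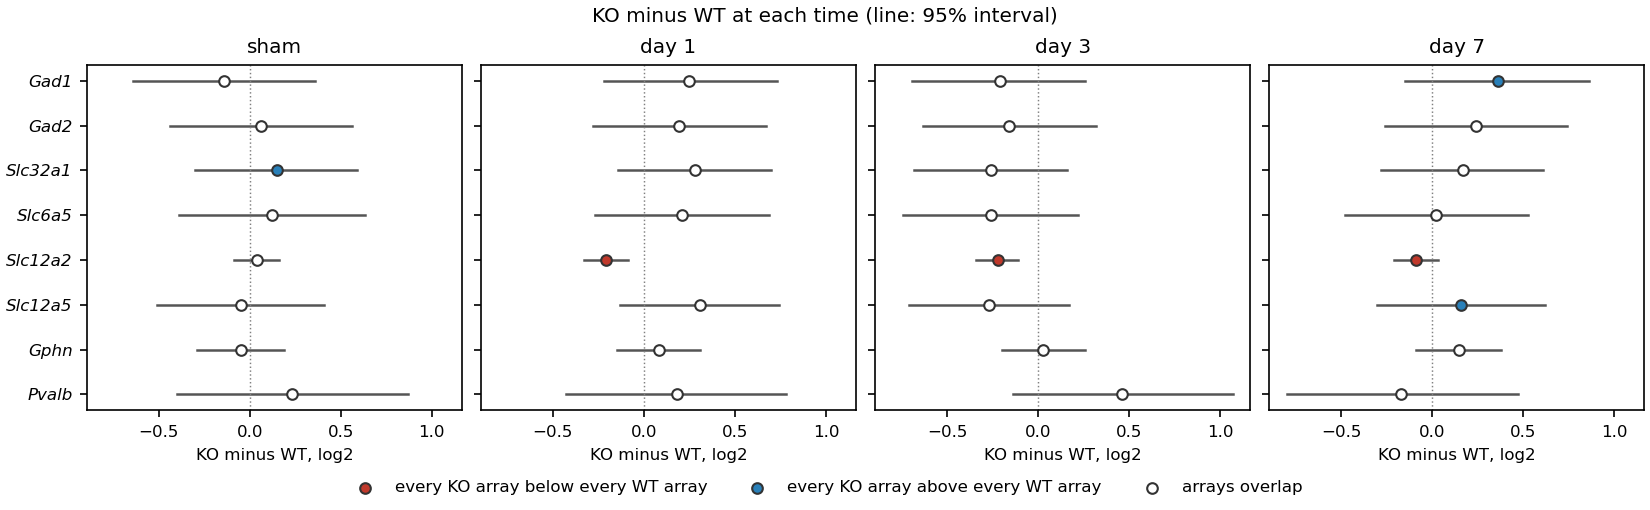
KO minus WT in log2 units for each gene after sham surgery and at days 1, 3 and 7, with 95% intervals as lines, red points where every KO array was below every WT array and blue points where every KO array was above. Slc12a2 is red at the 3 injured times, at -0.21, -0.22 and -0.09.

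The receptors that these transmitters act on fell in the same cords. Of 12 tested GABA-A, GABA-B and glycine receptor genes, 10, 11 and 7 fell in KO cord and 12, 11 and 9 in WT cord at days 1, 3 and 7, and none rose. These are 83.3%, 91.7% and 58.3% of the 12 in KO cord, where 27.3%, 38.8% and 31% of all genes fell, and 100%, 91.7% and 75% in WT cord, where 32.5%, 37.4% and 33.3% fell. Their median log2 differences were -0.97, -1.55 and -0.69 in KO cord and -0.93, -1.24 and -0.88 in WT cord. Gabrb2, a GABA-A receptor beta subunit, was at -1.0, -2.05 and -1.14 in KO cord and -1.25, -1.87 and -1.37 in WT cord, and passed each time. Glra1, the alpha subunit of adult glycine receptors, was at -0.45, -1.61 and -0.94 in KO cord, where day 1 did not pass (adjusted p = 0.113), and at -0.54, -1.22 and -0.98 in WT cord. Gabra4 was lowest at day 1, at -1.45 in KO cord (adjusted p = 5.56e-06) and -1.28 in WT cord (adjusted p = 1.09e-05). Glrb, the subunit that gephyrin binds, was at -1.50 in KO cord and -1.27 in WT cord at day 3. At day 1, Gabra2 was at -1.21 in KO cord and -0.94 in WT cord and Gabrg1 at -1.19 in KO cord and -1.20 in WT cord, all passing.

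More genes of transmitter uptake and breakdown fell than rose at each time. Of 14 tested, 9, 9 and 4 fell and 1, 3 and 1 rose in KO cord, and 8, 6 and 5 fell and 3, 3 and 2 rose in WT cord. The fallers are 64.3%, 64.3% and 28.6% of the list in KO cord and 57.1%, 42.9% and 35.7% in WT cord. The all-gene shares of fallers are those given for the receptors. The list is below that share at KO day 7 (31%) and near it at WT days 3 and 7 (37.4% and 33.3%). The risers are 7.14%, 21.4% and 7.14% in KO cord and 21.4%, 21.4% and 14.3% in WT cord. Each is below the share of all genes that rose, 23.7%, 30.9% and 23.5% in KO cord and 27.1%, 29.5% and 25.8% in WT cord. Their medians were -0.49, -0.28 and -0.03 in KO cord and -0.63, -0.32 and -0.14 in WT cord. Slc6a11 (GAT-3), the GABA transporter of astrocytes, was at -2.09 ± 0.24 at day 3 in KO cord (adjusted p = 1.61e-08) and -1.89 ± 0.25 in WT cord (adjusted p = 3.38e-07). Slc6a9 (GlyT1), the glial glycine transporter, fell at each time, by 0.75, 0.88 and 0.73 in KO cord and 0.75, 0.81 and 0.65 in WT cord. Maob, a monoamine oxidase of astrocytes, was at -1.12 ± 0.21 in KO cord (adjusted p = 5.81e-05) and -1.60 ± 0.19 in WT cord (adjusted p = 9.06e-08) at day 1. Shmt2, a mitochondrial enzyme that interconverts serine and glycine, rose by 0.97 and 0.92 in KO cord at days 1 and 3 and by 1.16, 1.12 and 0.69 in WT cord at days 1, 3 and 7, and was at 0.36 at KO day 7 (adjusted p = 0.144). Slc38a5, an amino acid transporter that carries glutamine and glycine, rose at day 3, by 1.61 ± 0.29 in KO cord and 1.17 ± 0.30 in WT cord. At day 1 the glutamine carriers Slc38a1 and Slc38a2 were at -0.48 and 0.21 in KO cord and -0.71 and 0.32 in WT cord, and only Slc38a2 in KO cord did not pass (adjusted p = 0.08). Abat, the enzyme that breaks GABA down, was at -1.26 ± 0.15 in KO cord and -1.04 ± 0.16 in WT cord at day 3. Slc6a13 (GAT-2), found in leptomeninges, was higher at day 7, by 1.66 ± 0.57 in KO cord (adjusted p = 0.0153) and 1.48 ± 0.57 in WT cord (adjusted p = 0.0265), but had fallen at day 1 in KO cord (-1.56 ± 0.57, adjusted p = 0.0236).

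Other chloride carriers moved in both directions. Of 14 tested genes of chloride transporters, channels and their kinases, 3, 8 and 7 fell and 1, 2 and 3 rose in KO cord, and 4, 8 and 8 fell and 3, 3 and 4 rose in WT cord. The fallers are 21.4%, 57.1% and 50% of the list in KO cord, the first below the 27.3% of all genes that fell there, and 28.6%, 57.1% and 57.1% in WT cord, the first below 32.5%. The risers are 7.14%, 14.3% and 21.4% in KO cord and 21.4%, 21.4% and 28.6% in WT cord. Of all genes, 23.7%, 30.9% and 23.5% rose in KO cord and 27.1%, 29.5% and 25.8% in WT cord. Only WT day 7 is above that share. The medians of the 14 were -0.12, -0.32 and -0.28 in KO cord and 0.00, -0.27 and -0.32 in WT cord. Slc12a4 (KCC1), a widely made potassium chloride cotransporter, rose by 0.65, 0.81 and 0.53 in KO cord and 1.33, 1.27 and 1.02 in WT cord. Slc12a7 (KCC4) rose at days 3 and 7, by 1.59 and 1.44 in KO cord and 1.33 and 1.31 in WT cord. The kinases that act on these carriers were lower at day 3, with Wnk2 at -1.04 in KO cord and -0.92 in WT cord, Stk39 (SPAK) at -1.02 in KO cord and -0.67 in WT cord, and Oxsr1 at -0.41 in KO cord and -0.54 in WT cord, all passing. Wnk3 was already at -0.69 in KO cord and -0.75 in WT cord at day 1, and the anion exchanger gene Slc4a2 was at 0.21 in KO cord (adjusted p = 0.0643) and 0.30 in WT cord (adjusted p = 0.00651).

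Among 12 tested genes of inhibitory synapse scaffold and adhesion, 2, 7 and 7 fell and 1, 2 and 1 rose in KO cord, and 6, 7 and 7 fell and 1, 2 and 2 rose in WT cord. The fallers are 16.7%, 58.3% and 58.3% of the 12 in KO cord, the first below the 27.3% of all genes, and 50%, 58.3% and 58.3% in WT cord. The risers are 8.33%, 16.7% and 8.33% in KO cord and 8.33%, 16.7% and 16.7% in WT cord. Each is below the share of all genes that rose, 23.7%, 30.9% and 23.5% in KO cord and 27.1%, 29.5% and 25.8% in WT cord. The median of the 12 was -0.07, -0.76 and -0.39 in KO cord and -0.32, -0.63 and -0.52 in WT cord. Lhfpl4, which holds GABA-A receptors at the synapse, was at -0.40, -1.03 and -0.68 in KO cord and -0.66, -0.93 and -0.82 in WT cord, and passed each time. Gabarap, a receptor trafficking and autophagy protein, rose at day 3, by 0.70 ± 0.07 in KO cord (adjusted p = 1.36e-09) and 0.58 ± 0.07 in WT cord (adjusted p = 1.63e-07). Insyn2a, a gene of the inhibitory synaptic factor family, rose at day 1, by 1.22 ± 0.16 in KO cord (adjusted p = 6.18e-07) and 1.25 ± 0.16 in WT cord (adjusted p = 1.21e-07), and at day 3, by 0.51 in KO cord and 0.65 in WT cord. At day 3 Gabarapl1 was at -0.89 in KO cord and -0.71 in WT cord, Plcl1 at -0.66 in KO cord and -0.56 in WT cord, and Nrxn2 at -0.98 in KO cord and -0.76 in WT cord. At day 7 Nrxn3 was at -0.72 in both, Iqsec3 at -0.87 in KO cord and -1.06 in WT cord, and Mocs2 at 0.07 in KO cord (adjusted p = 0.394) and 0.24 in WT cord (adjusted p = 0.00317).

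Of 9 tested calcium-binding and peptide genes of interneurons, 3, 5 and 2 fell and 2, 1 and 2 rose in KO cord. In WT cord 4, 5 and 5 fell and 1, 1 and 1 rose. These genes do not separate inhibitory from excitatory interneurons. The fallers are 33.3%, 55.6% and 22.2% of the 9 in KO cord, the last below the 31% of all genes, and 44.4%, 55.6% and 55.6% in WT cord. The risers are 22.2%, 11.1% and 22.2% in KO cord and 11.1% at each time in WT cord. All are below the share of all genes that rose, 23.7%, 30.9% and 23.5% in KO cord and 27.1%, 29.5% and 25.8% in WT cord. The median of the 9 was -0.14, -0.58 and -0.14 in KO cord and -0.57, -0.58 and -0.47 in WT cord. Calb2 (calretinin) was at -1.27 ± 0.16 in KO cord and -0.88 ± 0.17 in WT cord at day 3, while the peptide gene Gal was higher, at 1.06 ± 0.19 in KO cord and 1.03 ± 0.20 in WT cord. Nos1, the neuronal nitric oxide synthase, was at -0.39, -0.84 and -0.47 in KO cord and -0.77, -1.10 and -0.68 in WT cord, and passed each time. At day 1 the somatostatin gene Sst was at -1.13 in KO cord and -1.61 in WT cord, and the calbindin gene Calb1 at -1.21 in KO cord and -1.85 in WT cord, all passing. Pdyn passed at KO day 1 (0.73, adjusted p = 0.026) and Npy at KO day 7 (0.66, adjusted p = 0.0466), while WT cord was at 0.15 and 0.51 without passing. Of 14 spinal inhibitory neuron transcription factors only 5 were tested, and 2, 2 and 0 fell and 1, 1 and 0 rose in KO cord, against 2, 2 and 1 that fell and 0, 1 and 0 that rose in WT cord, with medians of -0.63, -0.18 and -0.17 in KO cord and -0.33, -0.21 and -0.11 in WT cord. The fallers are 40%, 40% and 0% of the 5 in KO cord and 40%, 40% and 20% in WT cord. Of all genes, 27.3%, 38.8% and 31% fell in KO cord and 32.5%, 37.4% and 33.3% in WT cord. At day 3 the list is thus near the all-gene share in both genotypes, and at day 7 below it. Here 40% stands for only 2 genes. The risers, 20%, 20% and 0% in KO cord and 0%, 20% and 0% in WT cord, are all below the all-gene share. Lhx1 was at -1.24 ± 0.28 in KO cord and -1.25 ± 0.30 in WT cord at day 3. Foxp2 was at -0.96 in KO cord and -0.47 in WT cord at day 3, and Sall3 at -0.64 in KO cord and -0.59 in WT cord at day 1, all passing. Gata2 rose at day 1 in KO cord (0.71) and at day 3 in WT cord (0.71), and Gbx2 at day 3 in KO cord (0.60). No gene of the 6 lists passed in KO against WT at any time. Of all genes only 0.0667%, 0.859%, 0.0334% and 0.0334% passed after sham surgery and at days 1, 3 and 7. The absence of passing genes therefore does not set these lists apart.

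Across the 34 arrays, which share the injury times, the genes whose levels ran closest to each of the 8 were found. The 3 genes with the highest Pearson correlation were Sh3gl2 (0.991), Dnajc27 (0.990) and Scn1a (0.989) for Slc32a1, Kcnc1 (0.990), Prepl (0.989) and Atp2b3 (0.987) for Slc12a5, and Plcxd2 (0.982), D130043K22Rik (0.980) and St8sia1 (0.979) for Gphn. For Gad1 they were Hoxb5 (0.978), Cbln1 (0.975) and Scn2b (0.972), for Gad2 Fstl5 (0.972), Rnf227 (0.971) and Lrfn5 (0.971), and for Slc6a5 Kcnab1 (0.966), Zmat3 (0.958) and Cadps (0.958). Slc12a2 had lower values, with Heca (0.910), Rnf141 (0.896) and Dusp15 (0.893). Pvalb was closest to Sh3bgr (0.942), Pfkm (0.910) and Rtn2 (0.908), and Pfkm encodes the muscle form of phosphofructokinase. Among the 8 genes, Slc32a1 and Slc12a5 were at 0.98 and Slc12a2 and Pvalb at 0.05. After subtracting group means these were 0.93 and -0.33.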

How the data were processed

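The labels put 34 Affymetrix arrays into 8 groups of genotype and time. RNA was extracted with Trizol and 1 ug was labelled with biotin, per the labels' protocols. The deposited log2 values are probe set summaries made by the authors with GCRMA, per the submitters' processing notes, and were used as deposited. GCRMA corrects background by probe sequence, normalises arrays by quantiles and summarises probes, so values near background are compressed and fold changes there understated. Values ran from 2.17 to 15.9, array medians from 4.138 to 4.391, and no array equalled another.

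Of 45101 probe sets, 34945 had 1 gene symbol, 932 several and 9160 none, and 64 were controls. Of these, 34741 were matched by Entrez ID. For each of 18193 genes the probe set of highest mean stood for the gene, and the 11993 genes exceeding log2 4 on 4 or more arrays entered the tests. A model of 8 group means was fitted to all arrays with limma 3.58.1 in R 4.3.3, after a test on simulated data, and p-values were adjusted by Benjamini-Hochberg over all tested genes of each of 15 comparisons at 0.05. Probe sets were adjusted over the 24574 above the filter.

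The 8 genes and all lists were chosen with earlier results of these data known. The text names the 8 genes, Ntrk2, the 3 genes closest to each by correlation, and, from each of 6 pathway lists, the 2 passing genes with the smallest p in each direction in each injury comparison. Values of such a gene in the other genotype stand beside it. Alternatives changed the probe set rule, filter, normalization, model, covariates and arrays, and those without KO day 3 arrays 3 and 4 or without 4 arrays were added after seeing the data. The number of arrays limits the precision. Replicate numbers gave no pairing, with correlations of same-numbered arrays from -0.513 to 0.557.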

Additional observations from a re-analysis of the deposited data

Results flagged for a closer look

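In 8 of 64 combinations of gene and group, 1 array lay far from the others of its group by Dixon's test, which chance does in about 1 of 20. Gad2 read 7.85 on WT day 3 array 3, against 8.09 to 8.10 on the others, and 8.52 on WT day 7 array 2, against 8.16 to 8.18. Slc32a1 read 9.67 on KO day 7 array 1, against 9.57 to 9.58, and Slc6a5 read 10.57 on KO day 7 array 4, against 10.49 to 10.50. Slc12a5 read 12.22 on KO day 1 array 1, against 12.61 to 12.65. Slc12a2 read 13.00 on KO sham array 4, against 13.11 to 13.12, 12.28 on KO day 1 array 4, against 12.51 to 12.53, and 13.01 on WT day 3 array 2, against 12.77 to 12.79. WT day 3 array 2 was also lowest of its group for Gad1, Slc32a1, Slc6a5, Slc12a5, Gphn and Pvalb. Several of these gaps are small because the other arrays of the group were close to each other.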

How the results depend on the processing

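At day 3, 8 genes fell in KO and in WT cord with any 1 array left out and under the other alternatives, except 7 in KO cord with only the groups compared (Pvalb lost) and 7 in WT cord with the mean over probe sets (Slc12a2 lost). In KO cord at day 1 the count was 4, and 7 with only the groups compared, with array weights, without KO day 3 arrays 3 and 4, and without these, WT day 3 array 2 and KO sham array 2. It was 2 to 6 with 1 array left out, with 2 without KO day 1 array 1, and 3 without KO sham array 2, which left 5 in KO day 7. The other ranges with 1 array left out were 5 to 7 in WT day 1, 6 to 7 in WT day 7, 5 to 6 in KO day 7 and 6 to 7 for day 3 against day 1, which had 4 with the Hox covariate. For day 7 against day 3 the count was 6, but 1 with only the groups compared, the muscle covariate, the Hox covariate, without KO day 3 arrays 3 and 4 or without the 4 arrays, 2 with array weights, and 3 to 7 with 1 array left out. With the Hox covariate, 4 genes passed in KO against WT sham, and 4 and 2 in the genotype difference at days 1 and 7. Gad2 reversed there, at -0.98 in KO against WT sham, against 0.06 as reported. In KO against WT at day 1, 1 gene, Slc12a2, passed with a trended robust fit, array weights, or without the 4 arrays, and 0 to 1 with 1 array left out. The causes were not tested. Over all genes, counts moved by over 1.5 times only in KO against WT and in the genotype differences. Without the Hox covariate they spanned 1 to 65 (8 as reported) for KO against WT sham, 65 to 376 (103) at day 1, 0 to 6 (4) at day 3 and 2 to 233 (4) at day 7, and 9 to 105 (17), 0 to 5 (0) and 0 to 57 (1) for the genotype differences. With the Hox covariate they were 1129 for KO against WT sham and 1543 and 344 for the genotype differences at days 1 and 7. With 1 array left out, 48 to 208 genes passed in KO against WT at day 1 and 2 to 32 at day 3. With the replicate block the counts of the 8 genes were unchanged, except 7 for day 7 against day 3, and same-numbered arrays did not deviate together. Of 5760 values checked, 39 that passed in neither fit changed sign by over 1 SE, 34 of them between genotypes or in genotype differences. Precision was limited by 4 or 5 arrays a group.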
